A study of Mus musculus with 6 samples.

Results

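Actin cytoskeleton and contractile genes were examined as a group of 34 genes, taken by symbol from the 27998 genes of the count matrices. All 34 were found, each once, in the matrices of all 6 libraries. The group holds actins, tropomyosins, transgelins, calponins, caldesmon, myosin light and heavy chains with their kinase, cross-linkers and adhesion proteins, and factors that turn filaments over.

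The cells came from mouse retinal cultures labelled as Müller glia, the radial support cells of the retina. Retinas had been dissociated with papain and grown in neurobasal medium with 10% serum, N2 supplement, L-glutamine and EGF. Single-cell RNA was counted by droplet capture (10x, version 2 chemistry), with 1 library per treatment. Each small RNA had been delivered at 500 nM by lipofection. The treatments were a let-7 antagomiR, which is an antisense blocker of let-7 microRNAs; a miR-25 mimic; a miR-124 mimic; the let-7 antagomiR with the miR-25 mimic, called the double treatment here; and all of these together, called the triple treatment. The control culture had received a control mimic and a control antagomiR, so every culture was transfected. The labels give no strain, age, genotype, number of animals or time after transfection for any of the 6 groups. With 1 library per treatment there was no replicate and no test between treatments was possible. Intervals below are 95% intervals of counting error alone and say nothing of the spread between cultures.

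Actin polymerises into filaments that non-muscle and smooth muscle myosins pull on, and tropomyosins, calponins and caldesmon lie along those filaments and tune that pull. Smooth muscle actin (Acta2) with transgelin (Tagln) marks contractile cells such as pericytes, the mural cells of retinal capillaries, and myofibroblasts. Many of these genes carry a CArG box, the binding motif of serum response factor, whose coactivators are released when free actin monomers become scarce. Müller glia kept in serum flatten and form stress fibres, which are contractile bundles of actin and myosin.

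The small RNAs are shown because the members can be read for their sites. Mature sequences are from RefSeq, and the capitals mark the seed, bases 2 to 8. The labels do not name the arm or the let-7 family member.
mmu-let-7a-5p: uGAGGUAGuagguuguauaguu
mmu-let-7i-5p: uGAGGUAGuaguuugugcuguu
mmu-miR-25-3p: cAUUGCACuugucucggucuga
The mature sequence of miR-124 is not shown. A full match to bases 2 to 8 of let-7 lies in the 3' untranslated region (UTR) of 4 of the 34 members (11.8%), against 714 of 6997 tested genes (10.2%). For the miR-25 seed the numbers are 1 of 34 members (2.94%) and 638 of 6997 genes (9.12%). The sites below are given 5' to 3' on the transcript's strand, on the mouse build GRCm38, with the site in capitals; that of Tpm2 is also followed by an A.
Tpm2, 3' UTR, chr4:43514872-43514900, minus strand: tttaccctcccCTACCTCacctgctgctt
Cnn1, 3' UTR, chr9:22109559-22109587, plus strand: cgaagatctgcCTACCTCtgtttcctgag
Myl9, 3' UTR, chr2:156781195-156781223, plus strand: atcccagtcacCTACCTCcccaacacata
Msn, 3' UTR, chrX:96167197-96167225, plus strand: tcttatttcttCTACCTCccatattggac
Myh9, 3' UTR, chr15:77761313-77761341, minus strand: aaccgtctcaaGTGCAATgcccctcccct

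A CArG box, searched by its 10-base consensus on both strands, lay in the promoter window of 6 of the 31 members with a RefSeq entry (19.4%). The window runs from 250 bases before to 50 bases after the gene start, and Actb, Actg2 and Tagln had no entry. The same motif was present in 97 of 5464 tested genes (1.78%). The search took CC, then 6 bases of A or T, then GG, so boxes that depart from this at any base were not counted. Of Acta1, Acta2, Cnn1, Tpm1, Tpm2 and Cald1, only Acta1 had a full match in the window (1 of 6). The 6 windows are shown because these members are set side by side below. Capitals mark the box, and the build is GRCm38.p6.
Myl9, chr2:156775293-156775322, plus strand: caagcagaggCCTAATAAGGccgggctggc
Acta1, chr8:123894829-123894858, minus strand: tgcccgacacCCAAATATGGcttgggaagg
Cnn2, chr10:79988534-79988563, plus strand: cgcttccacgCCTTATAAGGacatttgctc
Myl6, chr10:128493040-128493069, minus strand: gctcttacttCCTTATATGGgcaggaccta
Actg1, chr11:120348566-120348595, minus strand: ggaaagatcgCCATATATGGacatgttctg
Vcl, chr14:20929161-20929190, plus strand: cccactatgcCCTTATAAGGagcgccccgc

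The libraries held 11804176 to 23124374 UMIs (unique molecular identifiers, counted molecules), and 23124 cells were kept. The matrix of the double treatment is cut short in its file and ends after 3014 of 5141 barcodes, so that library is part of what was counted. Pairs of libraries shared 9 to 33 cell barcodes. The cultures were mixed: cells with a Müller glia profile, called Müller-like, made up 34.5% to 57.3% of the kept cells of the treated libraries, against 29.1% in the control library. Aqp4, a water channel of Müller glia, had 306 to 581 CPM in them, at most 19.2 CPM in microglia-like cells and 197 to 406 CPM in neuron-like cells. Rlbp1, their retinaldehyde-binding protein, had 52.0 to 567 CPM in them, at most 19.1 CPM in microglia-like cells and 95.1 to 401 CPM in neuron-like cells. Some other Müller glia markers used for naming were higher elsewhere. Apoe had 3971 to 8906 CPM in Müller-like and 9209 to 13150 CPM in microglia-like cells. Sox9 had 136 to 249.9 CPM in Müller-like and 183.5 to 364.4 CPM in astrocyte-like cells. In the control library the 18 markers summed to 12406 CPM in Müller-like, 12647 in microglia-like and 14745 in the 40 neuron-like cells. Mesenchymal-like, pericyte-like, astrocyte-like, microglia-like and neuron-like cells made up most of the rest, and 683 cells of 1 cluster were left unnamed. No member gene was used to group or name the cells. The genes with let-7 or miR-25 sites did not follow the labels of 2 libraries in Müller-like cells. In Müller-like cells, genes with a let-7 site stood above other genes by 0.0758 (difference of mean log2 ratios over control, after removing trends with UTR length, level and GC) with the let-7 antagomiR and by 0.0868 with the double treatment, but also by 0.0893 in the library labelled miR-124, whose label names no antagomiR, and by 0.0179 in the library labelled triple. As differences of medians, with no trend removed, these were 0.0434, 0.0169, 0.13 and 0.0636, so the library labelled triple stood below the let-7 antagomiR by the first measure and above it by the second. Genes with a miR-25 site differed by -0.151 with miR-25, by -0.157 with the double treatment and by 0.0151 in the library labelled triple, and as medians by -0.17, -0.217 and 0.0702. These 2 libraries are therefore called by their labels throughout, and every result on them holds for the libraries as labelled.

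Values are in CPM: the UMIs of a gene summed over the cells of a class in a library, divided by all UMIs of those cells and multiplied by 1e6. A member was counted as higher or lower in a comparison when it differed by at least 1.5-fold on the log2(CPM + 5) scale, which understates the difference of weakly counted genes. There were 1240 to 2953 Müller-like cells in the treated libraries and 1316 in the control library. In these cells all 34 members reached 20 CPM in at least 1 library, as did 7112 genes in all.

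In Müller-like cells Acta2, Tagln, Tpm1, Tpm2, Cnn1, Cald1 and Myl9 stood lowest in both libraries whose labels name miR-124, and highest in the double treatment. Of the other smooth muscle genes, Actg2 was lowest with miR-25 and Mylk with the let-7 antagomiR. In the library labelled miR-124, 16 of 34 members were lower than in the control library and none was higher. Over all 7112 genes, 6.69% were lower and 8.03% higher in that comparison. The median member differed by -0.55 on the log2 scale, against 0.048 for all genes. The library labelled triple had 19 members lower than the control library and none higher, where 8.83% of all genes were lower and 11.1% higher. Set against the double treatment, the library labelled triple had 21 members lower and none higher, where 13.2% of genes were lower and 18.3% higher. The comparisons of the library labelled miR-124 with the control and of the library labelled triple with the double treatment share no library. In both of these, 14 members were lower, out of the 16 and the 21, and 4.37% of all genes were lower in both.

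The let-7 antagomiR and miR-25 alone left the group close to the control library. With the let-7 antagomiR, 1 member was higher (Acta1) and none was lower, with 1.05% and 0.675% of all genes. With miR-25, no member passed 1.5-fold, with 0.97% of all genes lower and 1.43% higher. In the double treatment 6 members were higher than in the control library and none lower, with 3.21% of genes higher and 4.99% lower. Only 3 of the 34 were higher when cells needed 1000 genes and no more than 5% mitochondrial UMIs. Against the let-7 antagomiR alone, 5 members were higher in the double treatment (2.18% of genes), and against miR-25 alone 6 were higher (2.08% of genes). No member was lower in either comparison, where 4.12% and 3.75% of all genes were.

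**Figure D1:**
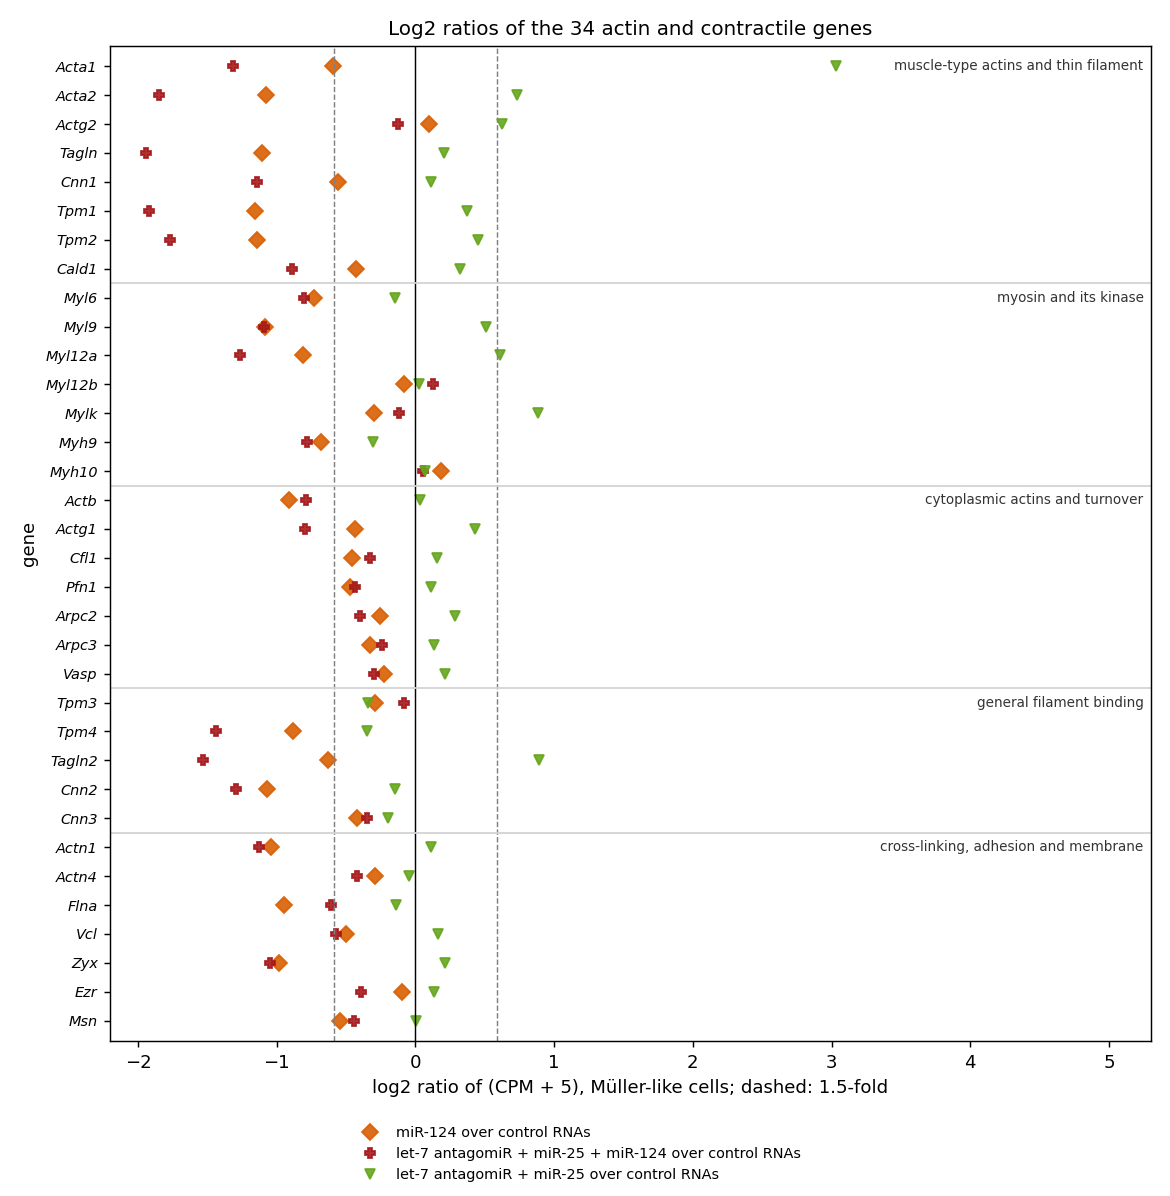
Log2 ratio of CPM + 5 (x axis) of each of the 34 members (y axis, grouped by role) in Müller-like cells, for both libraries whose labels name miR-124 and the double treatment, each over the control library; dashed lines mark 1.5-fold. In both libraries whose labels name miR-124, 32 of the 34 members lie below 0, while the double treatment over control has 8 below 0.

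The ratio of the highest to the lowest library in Müller-like cells was 458 for Acta1, 6.34 for Tagln2, 6.03 for Acta2, 4.92 for Tpm1, 4.90 for Tpm2 and 4.46 for Tagln. Smooth muscle actin, Acta2, had 2942 CPM with the let-7 antagomiR, 2199 with miR-25, 1121 in the library labelled miR-124, 3929 with the double treatment and 652 in that labelled triple, against 2366 in the control library. The highest and lowest of these are the double treatment and the library labelled triple, which by its label differs from it by miR-124. Acta2 was 0.474 of control (0.457 to 0.491) in the library labelled miR-124 and 0.276 of control (0.267 to 0.284) in that labelled triple. The double treatment was at 1.66 times control (1.62 to 1.70).

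Transgelin, Tagln, a calponin-family protein that binds actin in smooth muscle, followed the same order at the low end. It had 1908 CPM with the let-7 antagomiR, 1435 with miR-25, 873 in the library labelled miR-124, 2175 with the double treatment and 487 in that labelled triple, against 1890 in the control library. It was 0.462 of control (0.444 to 0.481) in the library labelled miR-124 and 0.258 of control (0.249 to 0.267) in that labelled triple. Its relative Tagln2, more broadly expressed, had 65.7 CPM with the let-7 antagomiR, 97.1 with miR-25, 46.6 in the library labelled miR-124, 143 with the double treatment and 22.5 in that labelled triple, against 74.7 in the control library. Both transgelins were lowest in the library labelled triple and highest in the double treatment.

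Tropomyosins wind along actin filaments and gate access of myosin. Tpm1 had 3226 CPM with the let-7 antagomiR, 3226 with miR-25, 1456 in the library labelled miR-124, 4215 with the double treatment and 857 in that labelled triple, against 3251 in the control library. Tpm2, which carries a let-7 site shown above, had 248 CPM with the let-7 antagomiR, 216 with miR-25, 122 in the library labelled miR-124, 379.9 with the double treatment and 77.5 in that labelled triple, against 276 in the control library. With the let-7 antagomiR alone Tpm2 was 0.898 of control (0.840 to 0.959). Tpm4 had 370 CPM with the let-7 antagomiR, 294 with miR-25, 227 in the library labelled miR-124, 330 with the double treatment and 153 in that labelled triple, against 422 in the control library. Tpm3, a cytoskeletal tropomyosin, stood apart from these: it had 112 CPM with the let-7 antagomiR, 93.8 with miR-25, 84.2 in the library labelled miR-124, 81.2 with the double treatment and 98.2 in that labelled triple, against 104 in the control library. Thus Tpm1, Tpm2 and Tpm4 were lowest in the library labelled triple, and Tpm3 passed 1.5-fold in none of these comparisons.

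Calponin 1, Cnn1, a smooth muscle protein that slows myosin's ATPase, had 21.6 CPM with the let-7 antagomiR, 19.3 with miR-25, 16.4 in the library labelled miR-124, 29.2 with the double treatment and 9.27 in that labelled triple, against 26.6 in the control library. Cnn1, which also carries a let-7 site, was under the let-7 antagomiR 0.811 of control (0.649 to 1.01), an interval that includes 1. Caldesmon, Cald1, had 867 CPM with the let-7 antagomiR, 720.4 with miR-25, 629 in the library labelled miR-124, 1064 with the double treatment and 456 in that labelled triple, against 849 in the control library. Cald1 passed 1.5-fold in the library labelled triple against control and not in the library labelled miR-124. Enteric smooth muscle actin, Actg2, had 12.4 CPM with the let-7 antagomiR, 7.51 with miR-25, 13.1 in the library labelled miR-124, 21.0 with the double treatment and 10.5 in that labelled triple, against 11.9 in the control library. Its only difference past 1.5-fold against control was the double treatment, at 1.76 times (1.29 to 2.43). Over the 6 libraries the median of Actg2 was 12.1 CPM in Müller-like cells and 20.1 CPM (9.54 to 72.5) in microglia-like cells. The part of RNA from other cells in its counts was not tested.

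Skeletal muscle actin, Acta1, had the widest ratio of all members, with few cells behind it. It had 15.5 CPM with the let-7 antagomiR, 7.94 with miR-25, 3.62 in the library labelled miR-124, 101.1 with the double treatment and 0.221 in that labelled triple, against 7.995 in the control library. In the double treatment 90 of 1370 Müller-like cells (6.57%, exact binomial interval 5.32% to 8.01%) held its 568 UMIs, with up to 55 UMIs in a cell. In the control library 10 of 1316 cells (0.760%) held 43 UMIs, 25 of them in 1 cell. The library labelled triple had 2 of 2244 cells (0.0891%, 0.0108% to 0.322%), each with 1 UMI. The ratio of the double treatment to control was 12.7 (9.27 to 17.7), and that of the library labelled triple to the double treatment was 0.00218 (0.000264 to 0.00792). Of the 638 Acta1 UMIs in kept cells of the double treatment, 89.0% were in Müller-like cells, and its microglia-like cells held none. With the let-7 antagomiR, 37 of 1525 cells (2.43%) held 138 UMIs, at 1.94 times control (1.37 to 2.80). When only cells with 1000 genes and no more than 5% mitochondrial UMIs entered, that log2 ratio was -0.872, below control.

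Among the 8 muscle-type and thin-filament members as a role group (Acta1, Acta2, Actg2, Tagln, Cnn1, Tpm1, Tpm2 and Cald1), 5 were lower in the library labelled miR-124 than in control and 7 in that labelled triple. All 8 members of that group were lower in the library labelled triple than in the double treatment, with a median log2 ratio of -2.18. In the double treatment 3 of the 8 were higher than in control. Of all genes, 6.69% were lower in the library labelled miR-124 than in control and 8.83% in that labelled triple. Against the double treatment 13.2% were lower in the library labelled triple, and 3.21% were higher in the double treatment than in control. Of the 5 members that act on filaments more generally, Tpm4, Tagln2 and Cnn2 were lower in each of these 3 comparisons of both libraries whose labels name miR-124, and Tpm3 and Cnn3 in none of them. Cnn3, the acidic calponin, had 707 CPM with the let-7 antagomiR, 891 with miR-25, 640.4 in the library labelled miR-124, 750 with the double treatment and 674 in that labelled triple, against 859 in the control library.

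Myosin and its kinase divided by gene. The regulatory light chain Myl9, whose phosphorylation switches on smooth muscle and non-muscle myosin, had 408 CPM with the let-7 antagomiR, 384 with miR-25, 175 in the library labelled miR-124, 537 with the double treatment and 174 in that labelled triple, against 377 in the control library. It was 0.466 of control (0.425 to 0.509) in the library labelled miR-124 and 0.461 of control in that labelled triple. Myl9 carries both a let-7 site and a CArG box, and with the let-7 antagomiR alone it was 1.08 times control (1.03 to 1.15). The essential light chain Myl6 had 1637 CPM with the let-7 antagomiR, 1528 with miR-25, 959.6 in the library labelled miR-124, 1439 with the double treatment and 910.3 in that labelled triple, against 1594 in the control library.

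Myl12a, another regulatory light chain, had 595 CPM with the let-7 antagomiR, 640.0 with miR-25, 334 in the library labelled miR-124, 905 with the double treatment and 243 in that labelled triple, against 590.3 in the control library. Its neighbour Myl12b had 99.3 CPM with the let-7 antagomiR, 111 with miR-25, 98.4 in the library labelled miR-124, 106 with the double treatment and 114 in that labelled triple, against 104 in the control library. Myl12a varied widely across libraries and Myl12b hardly at all. The annotated spans of both overlap on the minus strand of chromosome 17 (chr17:70993656-71002878 for Myl12a and chr17:70974119-71002208 for Myl12b), so the split of reads between them is uncertain.

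Myosin light chain kinase, Mylk, was weakly counted in Müller-like cells. It had 5.73 CPM with the let-7 antagomiR, 10.0 with miR-25, 7.25 in the library labelled miR-124, 22.8 with the double treatment and 8.83 in that labelled triple, against 10.0 in the control library. The double treatment stood above the rest, at 2.27 times control (1.64 to 3.18). Over the 6 libraries the median of Mylk was 9.42 CPM in Müller-like cells and 7.51 CPM (1.41 to 44.0) in microglia-like cells. Of the heavy chains, Myh9 had 176 CPM with the let-7 antagomiR, 135 with miR-25, 115 in the library labelled miR-124, 150 with the double treatment and 107 in that labelled triple, against 187 in the control library. Myh9 holds the miR-25 site shown above and was 0.725 of control (0.669 to 0.785) with miR-25 and 0.804 (0.733 to 0.882) in the double treatment. The other heavy chain, Myh10, had 53.8 CPM with the let-7 antagomiR, 49.2 with miR-25, 58.5 in the library labelled miR-124, 53.6 with the double treatment and 53.0 in that labelled triple, against 50.9 in the control library. Myh10 moved least of the myosins, together with Myl12b. Of the 7 myosin and kinase members, 4 were lower in the library labelled miR-124 than in control (Myl9, Myl6, Myl12a and Myh9), and the same 4 in the library labelled triple. The shares of all genes lower in these comparisons were 6.69% and 8.83%.

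**Figure D2:**
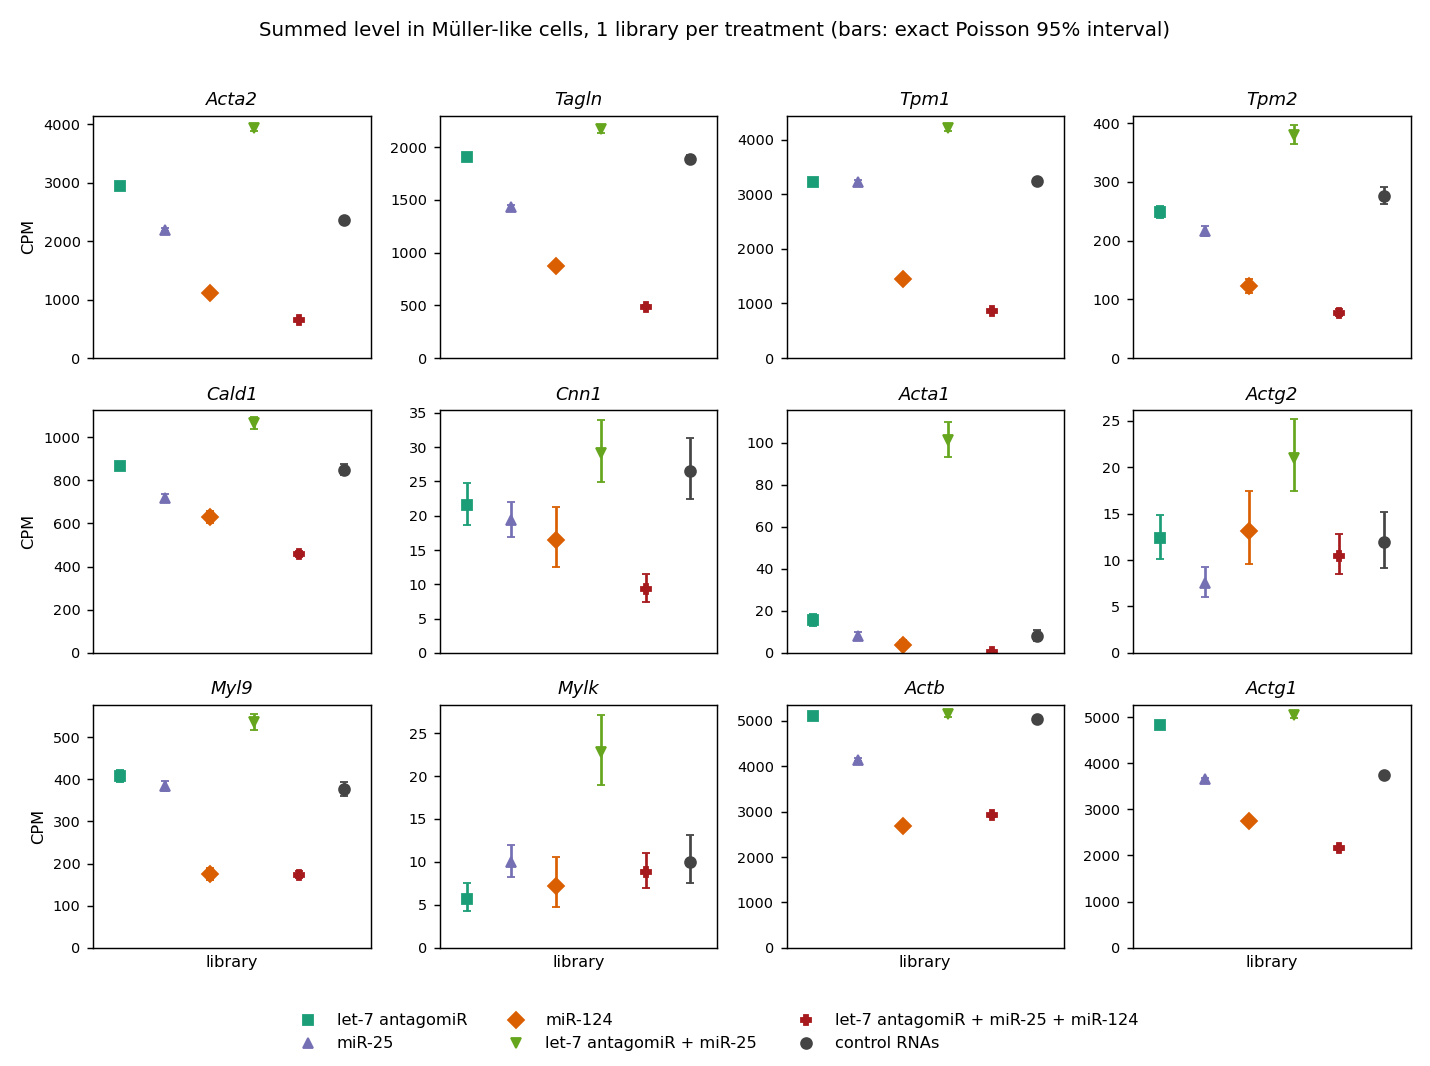
Levels of 12 members (the 8 muscle-type and thin-filament members, Myl9, Mylk, Actb and Actg1) in Müller-like cells of each library, in CPM on linear axes from 0, with exact Poisson 95% intervals. Acta2 lies between 652 CPM in the library labelled triple and 3929 CPM in the double treatment, and Acta1 stands out in the double treatment alone.

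The cytoplasmic actins, which build the cortex and stress fibres of every cell, had ratios of the highest to the lowest library of 1.92 for Actb and 2.34 for Actg1. Actb had 5113 CPM with the let-7 antagomiR, 4148 with miR-25, 2679 in the library labelled miR-124, 5154 with the double treatment and 2917 in that labelled triple, against 5038 in the control library. It was 0.532 of control (0.519 to 0.544) in the library labelled miR-124 and 0.579 for that labelled triple. Actg1 had 4818 CPM with the let-7 antagomiR, 3649.5 with miR-25, 2756 in the library labelled miR-124, 5046 with the double treatment and 2156 in that labelled triple, against 3739 in the control library. It was 0.737 of control (0.719 to 0.755) in the library labelled miR-124 and 0.577 for that labelled triple. The coding sequences of the actin genes are similar, so some reads within them could be shared between Acta1, Acta2, Actb, Actg1 and Actg2, and the values of these genes are uncertain to that degree.

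Of the other members that turn filaments over, cofilin (Cfl1), profilin (Pfn1), Vasp and the Arp2/3 subunits Arpc2 and Arpc3 did not pass 1.5-fold against control in either library with miR-124 in its label. Arpc2, part of the complex that nucleates branches, had 451 CPM with the let-7 antagomiR, 463 with miR-25, 348 in the library labelled miR-124, 509.7 with the double treatment and 315 in that labelled triple, against 418 in the control library. It passed 1.5-fold only in the library labelled triple against the double treatment. Among cross-linkers and adhesion proteins, alpha-actinin 1, which bundles filaments in stress fibres, had 163 CPM of Actn1 with the let-7 antagomiR, 163 with miR-25, 97.0 in the library labelled miR-124, 222 with the double treatment and 91.0 in that labelled triple, against 205 in the control library. Actn1, filamin A (Flna) and the focal adhesion protein zyxin (Zyx) were lower in the library labelled miR-124 than in control, as they were in the library labelled triple. Zyx was 0.482 of control in the library labelled miR-124 and 0.458 for that labelled triple, and Flna 0.507 and 0.647. Actn4, Vcl, Ezr and Msn did not pass 1.5-fold in either, although Vcl, vinculin, passed 1.5-fold in the library labelled triple against the double treatment. Ezrin, which ties filaments to the membrane of Müller glial processes, had 135 CPM of Ezr with the let-7 antagomiR, 169 with miR-25, 128 in the library labelled miR-124, 151 with the double treatment and 104 in that labelled triple, against 138 in the control library. Moesin, Msn, its relative with a let-7 site, was 0.974 of control (0.919 to 1.03) with the let-7 antagomiR.

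Of the 6 members with a CArG box in the promoter window, Acta1, Myl9, Cnn2, Myl6 and Actg1 were lower in the library labelled triple than in control, where 8.83% of all genes were lower, and Vcl did not pass 1.5-fold. Acta2, Tpm1, Tpm2, Cnn1 and Cald1, with no full match to the consensus in the window, were lower in that comparison as well. Boxes that depart from the consensus were not searched, so these members may hold such boxes. In the double treatment Acta1 alone of the 6 was higher than in control, where 3.21% of all genes were higher.

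The Müller-like cells of the 6 libraries were spread unevenly over 3 clusters. A cluster led by Gfap held 58.3% (55.5% to 61.1%) of the Müller-like cells in the library labelled miR-124 and 78.7% (76.9% to 80.3%) of those labelled triple, against 0.760% in the control library and 0.438% to 0.880% in the other 3. With nearly all of its cells from 2 libraries, it may be those libraries rather than a cell type. A cluster led by Lcn2 and one led by Grem1 held the rest. In the double treatment these made up 37.5% and 62.1% of the Müller-like cells, against 58.7% and 40.6% in the control library. The 34 members together took 2.73% of Müller-like UMIs with the let-7 antagomiR, 2.36% with miR-25, 1.51% in the library labelled miR-124, 3.08% with the double treatment and 1.29% in that labelled triple, against 2.58% in the control library.

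Within clusters the shares were closer. In the Lcn2-led cluster the members took 2.38% of UMIs with the let-7 antagomiR, 2.16% with miR-25, 1.88% in the library labelled miR-124, 2.60% with the double treatment and 1.93% in that labelled triple, against 2.14% in the control library. In the Grem1-led cluster the share was 2.73% to 3.32% in the 5 treated libraries, against 3.10% in the control library. In the Gfap-led cluster it was 0.974% in the library labelled miR-124 and 0.941% for that labelled triple, against 0.813% in the 10 such cells of the control library.

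**Figure D3:**
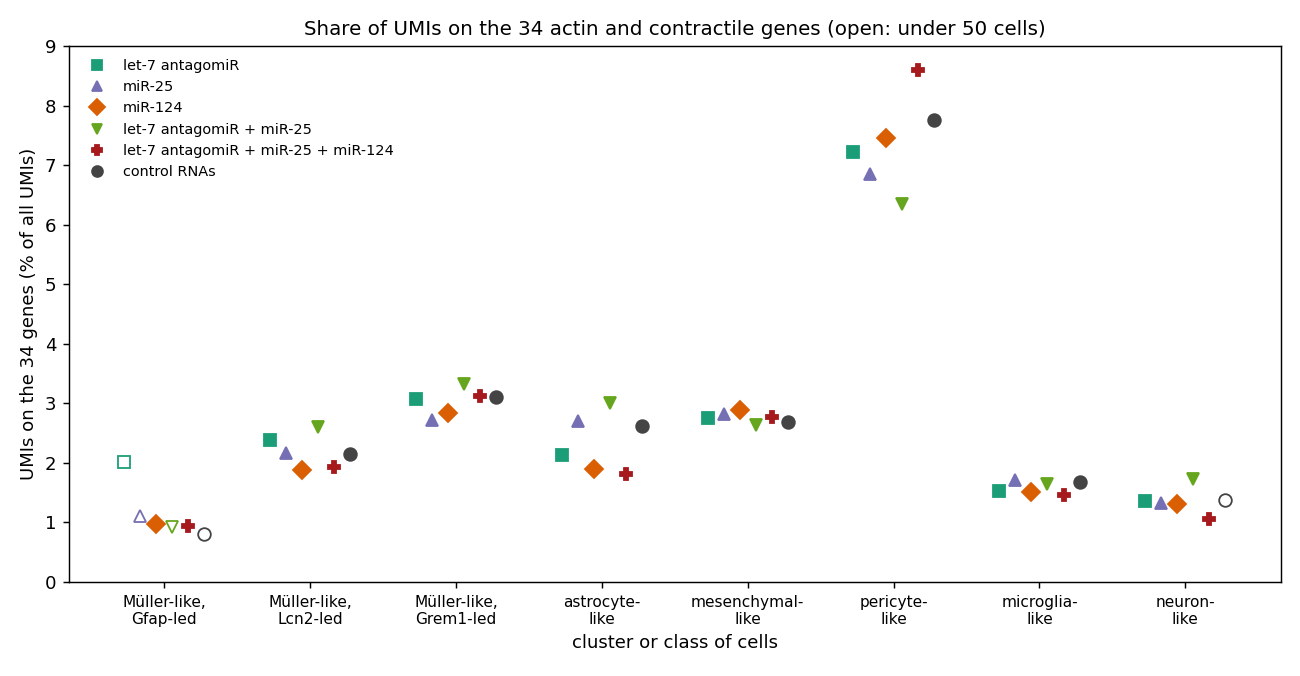
Share of UMIs taken by the 34 members, in percent (y axis), in the 3 Müller-like clusters and 5 other classes (x axis), 1 point per library; open points have under 50 cells. The Gfap-led cluster lies near 1% in both libraries whose labels name miR-124, below the Lcn2-led and Grem1-led clusters of the same libraries.

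Compared cluster by cluster, few members were lower than in control. In the Lcn2-led cluster, where 32 members could be compared, Acta1 was lower in the library labelled miR-124 than in control and no member was higher, with 3.71% of genes lower and 2.98% higher. The library labelled triple had 3 members lower than control there (Acta1, Tpm2 and Cnn1) and none higher, with 3.14% of genes lower and 2.89% higher. In the Grem1-led cluster, Tpm2 of 34 members was lower and Actg2 higher in the library labelled miR-124 than in control, with 6.08% of genes lower and 4.4% higher. Actg2 there rests on 10 UMIs in the library labelled miR-124 (17.6 CPM, 8.42 to 32.3). The control library had 21 (8.46 CPM, 5.24 to 12.9), and these intervals overlap. No member passed 1.5-fold there in the library labelled triple, where 4.71% of genes were lower than in control and 3.99% higher. Acta2 in the Lcn2-led cluster had 1839 CPM in the library labelled miR-124 and 1652 for that labelled triple, against 1906 in the control library. These are 0.965 of control (0.914 to 1.02) and 0.866 of control (0.826 to 0.908). The Gfap-led cluster had 356 CPM of Acta2 in the library labelled miR-124 and 236 for that labelled triple.

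Within a library the members stood at different levels in the 3 clusters. In the library labelled miR-124, 20 of 31 members were lower in the Gfap-led than in the Lcn2-led cluster and none higher, with 10.3% of genes lower and 13.5% higher. In the library labelled triple, 18 of 30 were lower and none higher, with 8.73% lower and 13.1% higher. Acta2 differed most, by -2.35 in the library labelled miR-124 and by -2.78 in the library labelled triple on the log2 scale. Tagln differed by -2.05 in the library labelled miR-124, and Actb by -0.97. Myh10 differed by -0.03 and Cnn3 by -0.16 in that library. Against the Grem1-led cluster, 24 of 31 members were lower in the Gfap-led cluster (library labelled miR-124) and 26 of 31 in that labelled triple, and none was higher. Of all genes, 15.9% and 14.6% were lower in these comparisons and 20.9% and 20.1% higher. The Grem1-led cluster in turn stood above the Lcn2-led one, with 6 of 31 members higher in the library labelled miR-124 and 16 of 31 in that labelled triple, and none lower. Genes higher there made up 8.38% and 6.95% of all, and genes lower 10.2% and 7.34%. The clusters were made from the same cells, without the member genes, so the values describe them and are no test.

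In the library labelled miR-124 the median cell had 2577 UMIs in the Gfap-led cluster and 2568 in the Lcn2-led one, with 7.86% and 7.22% mitochondrial UMIs. The median cell of the library labelled triple had 3567 UMIs in the Gfap-led and 4198 in the Lcn2-led cluster, with 6.52% and 6.39% mitochondrial UMIs. The Grem1-led cluster had a median of 3320 UMIs and 6.18% mitochondrial UMIs in the library labelled miR-124, and 5356 UMIs and 5.85% for that labelled triple. The list of pericyte markers summed to 117 CPM in Müller-like cells in the library labelled miR-124 and 107 for that labelled triple, against 85.5 in the control library, and to 2168 to 2848 CPM in pericyte-like cells. The pericyte list holds 15 markers. In Müller-like cells, 4 of them were at 0 in the control library and 1 to 4 in each treated library. Only Higd1b was at 0 in all 6 libraries, so each of the others was counted in at least 1. The mesenchymal list summed to 199 CPM in the library labelled miR-124 and 138 for that labelled triple, against 168 in the control library. The pericyte sum was thus not lower in these 2 libraries, while the mesenchymal sum was higher in one and lower in the other. The Müller glia list summed to 18378 CPM in the library labelled miR-124 and 21898 for that labelled triple, against 12406 in the control library, the astrocyte list to 1112 and 1926 CPM in these 2 libraries, against 338 in control, and the endothelial list to 800 and 1052 CPM, against 434 in control. Of the 7 endothelial markers, Cdh5, Cldn5, Tie1 and Ly6c1 were at 0 in Müller-like cells of all 6 libraries, so that sum rests on the others. Igsf1 and Sox10, of the 10 astrocyte markers, were also at 0 in all 6. The part of these lists in the result was not tested.

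The double treatment kept a difference within both clusters. In the Lcn2-led cluster 5 members were higher than in control (Acta1, Acta2, Tpm2, Tagln2 and Myl9) and none lower, with 4.44% of genes higher and 6.29% lower, and Acta2 had 3358 CPM against 1906 in control. In the Grem1-led cluster 4 were higher (Acta1, Actg2, Tagln2 and Mylk) and none lower, with 3.9% of genes higher and 5.31% lower. The library labelled triple had 12 members lower than the double treatment in the Lcn2-led cluster, with 7.66% of genes lower, and 5 lower in the Grem1-led cluster, with 8.19%. Tpm3 was higher in the Lcn2-led cluster (9.83% of genes higher) and Flna in the Grem1-led cluster (8.83% of genes higher).

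The share of cells with a transcript followed the summed levels. After thinning each cell to 1500 UMIs, Acta2 was detected in 70.6% of Müller-like cells with the let-7 antagomiR, 62.4% with miR-25, 42.1% in the library labelled miR-124, 79.2% with the double treatment and 28.6% in that labelled triple, against 64.4% in the control library. Without thinning the shares were 85.4%, 76.1%, 52.7%, 90.2% and 46.1% in these 5 libraries, against 79.1% in the control library. Thinning left out 0 to 95 cells per library. In microglia-like cells, which should lack Acta2, the thinned share was 12.2% to 29.2%. In the library labelled triple it was 28.6% in Müller-like cells and 17.2% (10.3% to 26.1%) in microglia-like cells. For Tagln the thinned share was 69.1% with the let-7 antagomiR, 59.6% with miR-25, 36.8% in the library labelled miR-124, 73.8% with the double treatment and 21.7% in that labelled triple, against 63.7% in the control library, and 3.06% to 14.8% in microglia-like cells. The median microglia-like cell held 3974 to 6990 UMIs and the median Müller-like cell 2654 to 5620.

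In the other classes, when the library labelled miR-124 was set against control, 0 of 32 members were lower in mesenchymal-like and pericyte-like cells and 10 of 33 in astrocyte-like cells. In mesenchymal-like cells, which numbered 797 to 1290 in the treated libraries and 2268 in the control library, no member was higher or lower in the library labelled miR-124 than in control, with 1.2% of genes lower and 1.81% higher. Actg2 of 32 members was lower in the library labelled triple than in control, with 2.04% of genes lower and 2.78% higher. The non-muscle heavy chain Myh9 was lower in the double treatment than in control and no member was higher, with 2.69% of genes lower and 1.73% higher. Against the double treatment, the library labelled triple had Actg2 and Tagln2 lower and Mylk higher, with 1.84% of genes lower and 3.72% higher. The members took 2.64% to 2.89% of mesenchymal-like UMIs in the 5 treated libraries, against 2.68% in the control library.

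In pericyte-like cells the members took 6.34% to 8.59% of UMIs in the treated libraries, against 7.76% in the control library. Acta2, Actg2, Tagln, Cnn1 and Mylk stood lowest there in the double treatment. The double treatment had 5 of 32 members lower than control (Acta2, Actg2, Tagln, Cnn1 and Mylk) and none higher, with 5.55% of genes lower and 7.68% higher. That count was 2 (8.52% of genes lower) when cells needed 1000 genes and no more than 5% mitochondrial UMIs. It was 3 lower and 1 higher when cells were clustered with the actin genes or at a Leiden resolution of 0.3. The library labelled triple had 5 higher than the double treatment (Acta2, Actg2, Tpm3, Tagln and Cnn1) and Zyx lower, with 6.07% of genes higher and 9.48% lower. No member passed 1.5-fold against control in the library labelled miR-124, with 2.28% of genes lower and 2.4% higher, or in that labelled triple, with 3.38% lower and 3.26% higher. Acta2 in pericyte-like cells had 10093 CPM with the let-7 antagomiR, 9495 with miR-25, 11419 in the library labelled miR-124, 7151 with the double treatment and 14437 in that labelled triple, against 11054 in the control library. Actg2 had 1791 CPM with the let-7 antagomiR, 1421 with miR-25, 1912 in the library labelled miR-124, 978 with the double treatment and 2094 in that labelled triple, against 2065 in the control library. These cells numbered 177 to 294 in the treated libraries and 308 in the control library, and their mesenchymal marker sum ran from 10858 to 16884 CPM.

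In astrocyte-like cells (170 to 316 in the treated libraries, 278 in the control library) 10 of 33 members were lower in the library labelled miR-124 than in control, with 4.73% of genes lower, and none was higher, with 8.28% higher. The library labelled triple also had 10 lower than control, among them Acta2, Tagln, Tpm2, Cnn1 and Myl9, with 3.97% of genes lower, and 1 higher, Myl12b, with 9.77% higher. The double treatment had Acta2, Mylk and Vasp higher than control and Myh10 and Zyx lower, with 5.9% of genes higher and 9.83% lower. Against the double treatment, 16 were lower in the library labelled triple, with 8.11% of genes lower, and Myl12b and Myh10 were higher, with 18.8% higher. The let-7 antagomiR had Actn1, Tpm2, Tagln and Cnn1 lower than control in these cells and none higher, with 5.3% of genes lower and 3.83% higher. Set against the let-7 antagomiR, the double treatment had 11 members higher and 1 lower, with 6.75% of genes higher and 9.48% lower. The mesenchymal marker list summed in astrocyte-like cells to 615 CPM in the library labelled miR-124, 206 with the double treatment and 729 for that labelled triple, against 1346 in the control library. The Müller glia list summed to 6405 CPM in the library labelled miR-124, 3089 with the double treatment and 6863 for that labelled triple, against 3295 in the control library. The part of either list in these counts was not tested. The share of UMIs was 2.13% with the let-7 antagomiR, 2.71% with miR-25, 1.90% in the library labelled miR-124, 3.002% with the double treatment and 1.81% in that labelled triple, against 2.62% in the control library. Microglia-like cells held 1.47% to 1.71% in the treated libraries, against 1.68% in the control library.

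Across classes, 28 of the 34 members had their highest median level in pericyte-like cells, and 25 were highest there in all 6 libraries. The ratio of the median level in pericyte-like cells to that in Müller-like cells was 153 for Actg2, 77.0 for Mylk and 28.4 for Cnn1, but 4.63 for Acta2 and 2.64 for Tagln. These medians cover wide ranges, since Acta2 had 14437 and 652 CPM in pericyte-like and Müller-like cells of the library labelled triple, and 7151 and 3929 CPM in those of the double treatment. For Actb and Actg1 it was 1.75 and 1.41. Tpm3, Arpc2 and Arpc3 were highest in microglia-like cells in all 6 libraries, and Cnn3 in astrocyte-like cells. Ezr was lowest in pericyte-like cells in all 6 libraries, with a median of 3.64 CPM against 136 CPM in Müller-like cells. The level of Acta2 ran from 652 to 3929 CPM over the 6 libraries in Müller-like cells and from 2232 to 2859 CPM in mesenchymal-like cells. It was higher in Müller-like than in mesenchymal-like cells with the let-7 antagomiR and the double treatment and in the control library, and lower in the other 3. The classes were formed from other genes of the same cells, so these orders describe the classes and are no test.

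**Figure D4:**
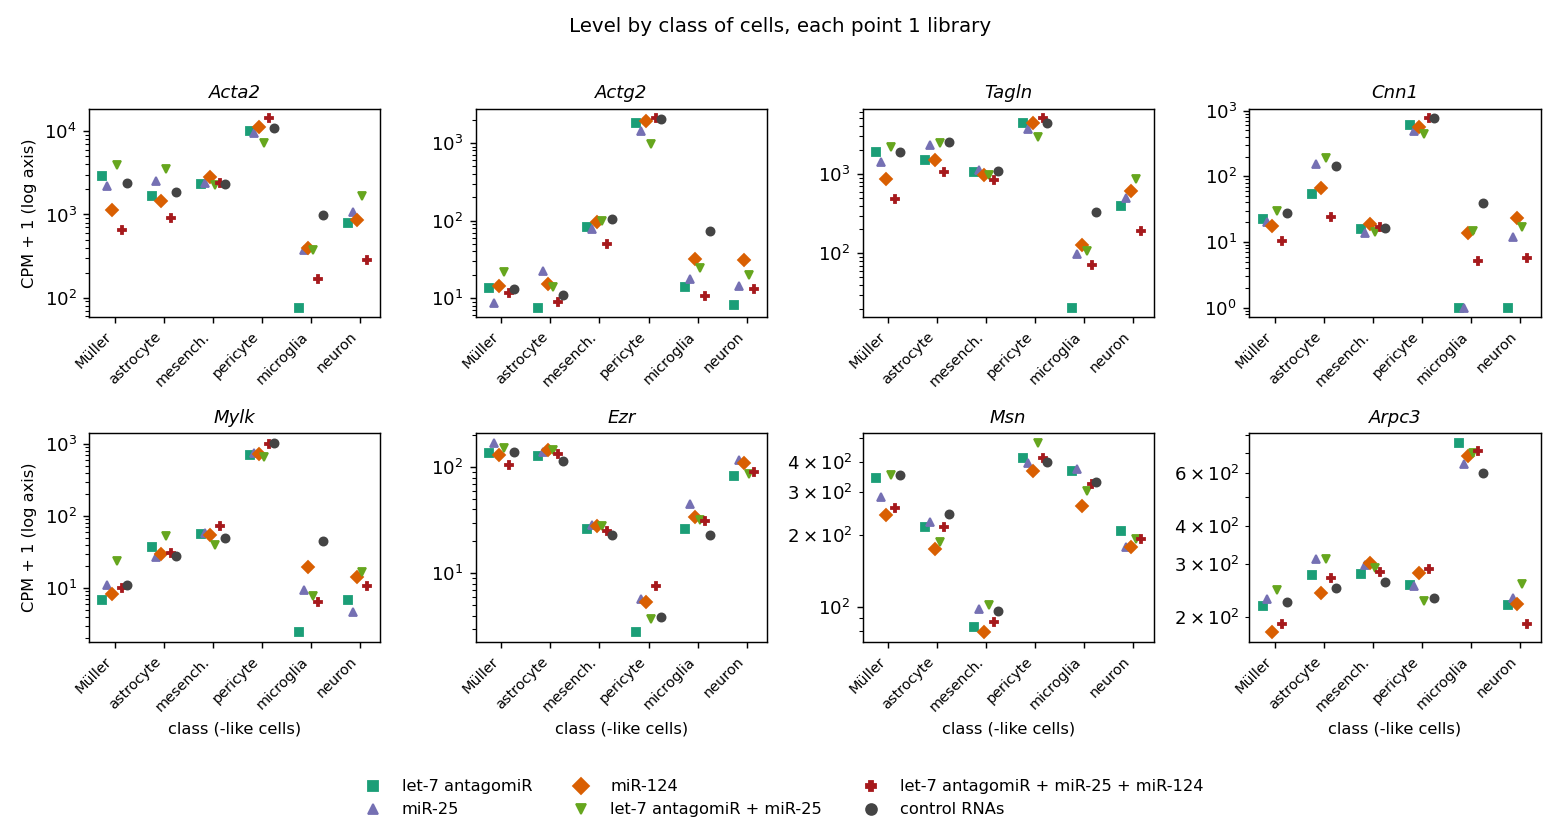
Level of 8 members (CPM + 1, log axis) in 6 classes of cells, 1 point per library; classes with under 50 cells in a library are left out. Acta2, Actg2, Tagln, Cnn1 and Mylk are highest in pericyte-like cells, where Ezr is lowest, and Arpc3 is highest in microglia-like cells.

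Of 84 further actin-related genes found in the matrices, 71 were measured in Müller-like cells. In the library labelled miR-124, 12 of these 71 were lower than in control and 2 higher, with 6.69% of all genes lower and 8.03% higher. Set against the double treatment, the library labelled triple had 16 lower and 5 higher, with 13.2% of all genes lower and 18.3% higher. In both comparisons 7 were lower, with 4.37% of all genes, and 2 were higher, with 6.13% of all genes. Fascin, Fscn1, which bundles filaments in filopodia, had 85.3 CPM with the let-7 antagomiR, 102 with miR-25, 36.2 in the library labelled miR-124, 110.0 with the double treatment and 44.8 in that labelled triple, against 119 in the control library. Arpc1b, an Arp2/3 subunit, had 260.3 CPM with the let-7 antagomiR, 354 with miR-25, 153 in the library labelled miR-124, 372 with the double treatment and 102 in that labelled triple, against 284 in the control library. Capg, which caps filament ends, differed by -0.90 and Csrp1, a LIM protein of smooth muscle, by -0.79 between the library labelled miR-124 and control on the log2 scale. Within the Lcn2-led cluster the same comparison gave -1.06 for Fscn1, -0.13 for Arpc1b, -0.28 for Capg and -0.32 for Csrp1. The library labelled triple against the double treatment gave 0.03, -0.33, 0.14 and -0.66 for these 4 genes in that cluster.

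The opposite direction was led by Pfn2, the profilin of neural tissue. It had 433 CPM with the let-7 antagomiR, 418 with miR-25, 1393 in the library labelled miR-124, 369 with the double treatment and 1517 in that labelled triple, against 386 in the control library. Its paralogue Pfn1, a member, was instead at 463 CPM in the library labelled miR-124 and 474 for that labelled triple, against 645 in the control library. Evl, of the same family as Vasp, differed by 0.67 between the library labelled miR-124 and control and by 0.72 between the library labelled triple and the double treatment. Enah, also of that family, differed by 0.53 and 0.61 in these comparisons, and Coro1c, a coronin, by 0.53 and 0.91. Within the Lcn2-led cluster Pfn2 differed by 0.63 and 0.44, and Evl by 0.05 and 0.32. Enah differed there by -0.13 and -0.49, and Coro1c by -0.37 and -0.20.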

How the data were processed

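The deposited matrices hold whole-number UMI counts per gene and cell, raw per the file headers; the submitters' processing notes name Cell Ranger 2, Seurat 2 and the build mm10, with no role given. No column was left unassigned to a sample (0). The member genes and the other gene lists were chosen with earlier results of these data known.

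Cells were kept at 500 or more detected genes and mitochondrial UMIs of no more than 10%. Scrublet marked 0.0885% to 2.27% of cells per library, and the marked cells were removed as doublets. In 4 libraries it marked too few for the caller to have worked, so doublets may remain. Cells were clustered with scanpy 1.11.5 (2000 variable genes without the member and other actin genes, 30 components, 15 neighbours, Leiden resolution 0.6), and a cluster was named from at least 3 markers of a class at 2-fold or more. UMI counts were summed per class and library and scaled to CPM. Genes at 20 CPM or more in at least 1 library of the class were compared as log2 ratios with a pseudocount of 5 CPM, and 1.5-fold (log2 0.585) was the limit for calling a gene higher or lower. Ratio intervals are exact and conditional on the total count, levels have exact Poisson intervals and shares Clopper-Pearson intervals, at 95%. PCR and sampling of cells are outside these intervals. With 1 library per treatment, no p-value was computed.

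All 34 members are accounted for. The 8 muscle-type and thin-filament members, Myl9, Mylk, Actb and Actg1, and in each comparison the 3 highest and 3 lowest members were given in every library, with the 4 highest and 4 lowest of the other actin genes by the smaller of the ratios of miR-124 over control and triple over double. Of 86 other actin genes listed, 84 were found. Seed matches were searched in GENCODE vM21 3' UTRs, taking let-7-5p and miR-25-3p since the labels name no arm. The difference of genes with a site was planned as a difference of medians, and the difference of means after removing trends with UTR length, level and GC was added later. The code was tested on simulated counts. Python 3.11.15, numpy 2.4.6 and scipy 1.17.1 were used.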

Additional observations from a re-analysis of the deposited data

Results flagged for a closer look

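The following members moved past 1.5-fold in opposite directions in 2 classes of cells under the same comparison. With 1 library per treatment none of these differences was tested. All values are log2 ratios of CPM + 5. Actg2 and Mylk were weakly counted in Müller-like cells, with medians of 12.1 and 9.42 CPM, against 20.1 and 7.51 CPM in microglia-like cells.

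For the library labelled triple against the double treatment, 4 smooth muscle genes went down in Müller-like cells and up in pericyte-like cells. Acta2 differed by -2.58 in Müller-like and by 1.01 in pericyte-like cells, Tagln by -2.15 and 0.81, Cnn1 by -1.26 and 0.80, and Actg2 by -0.75 and 1.10. Actg2 also differed by -0.93 in mesenchymal-like cells. Astrocyte-like cells went the way of Müller-like cells, with -1.97 for Acta2, -1.22 for Tagln and -2.78 for Cnn1. Mylk differed by -1.01 in Müller-like and by -0.69 in astrocyte-like cells, and by 0.78 in mesenchymal-like cells.

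For the double treatment against control, Acta2 differed by 0.73 in Müller-like and 0.91 in astrocyte-like cells, but by -0.63 in pericyte-like cells. Mylk differed by 0.89 in Müller-like and 0.82 in astrocyte-like cells, and by -0.63 in pericyte-like cells. Actg2 differed by 0.62 in Müller-like and by -1.08 in pericyte-like cells. Against the let-7 antagomiR, the double treatment differed by -0.87 for Actg2 and by -0.61 for Tagln in pericyte-like cells, and by 0.65 and 0.69 in astrocyte-like cells. The matrix of the double treatment is cut short, and its pericyte-like cells numbered 177; the part of either in these differences was not tested.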

How the results depend on the processing

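No paired analysis was possible because each treatment has 1 library. Under 9 of the alternatives (no level filter, median-of-ratios scaling, doublet removal by the top 4% of Scrublet scores, clustering with the actin genes, Leiden resolutions 0.3 and 1.0, barcodes of 1 library only, removal of the largest 5% of cells, and the mean over cells) members lower in the library labelled miR-124 than in control numbered 14 to 18, in the library labelled triple 19 to 20, and in that library against the double treatment 20 to 22.

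The ranges above do not cover the pseudocount of 1 CPM or the filter of 1000 genes and 5% mitochondrial UMIs. They also leave out all kept cells and the single clusters. With a pseudocount of 1 CPM, 1 member was lower with the let-7 antagomiR and 1 with miR-25. When cells needed 1000 genes and mitochondrial UMIs of no more than 5%, 3 members were lower with the let-7 antagomiR and 5 with miR-25, and members higher than control numbered 2 in the library labelled miR-124, 3 with the double treatment and 1 in the library labelled triple. The median Müller-like cell had 5.90% to 7.51% mitochondrial UMIs across the 6 libraries, so this filter left out most of these cells. The counts under it stand without the share of all genes and show dependence on processing only. Acta1 with the let-7 antagomiR was then at -0.872, and at -0.112 with Leiden resolution 1.0, where no member (0) was higher and the Grem1-led cluster had no name.

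Over all kept cells, whose classes differ in share between libraries, 5 members were lower and 1 higher with miR-25, and 0 were lower in the library labelled miR-124. Of all genes, 3.78% were lower and 6.82% higher with miR-25, and 1.07% were lower in the library labelled miR-124. The double treatment had 3 lower and 2 higher than control, with 4% of all genes lower and 4.14% higher. The library labelled triple had 1 lower than control, with 2.96% of all genes lower. Against the double treatment it had 4 lower and 2 higher, with 4.15% of all genes lower and 9.08% higher. Ratios turned to 0.305 for Acta1, 0.0895 for Acta2 and 0.0784 for Tpm2 in the library labelled miR-124 against control; to -1.03 for Actg2 and -0.659 for Mylk in the double treatment against control; and to 0.892 for Actg2, 0.261 for Cnn1, 0.0802 for Tpm2 and 0.735 for Mylk in the library labelled triple against the double treatment.

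Comparison within single clusters was chosen after seeing the data. For the libraries labelled miR-124 and triple, the shares of all genes in each cluster are given above. None is given for the let-7 antagomiR or miR-25 alone. In the Lcn2-led cluster 0 members were higher with the let-7 antagomiR and 1 with miR-25, 1 was lower in the library labelled miR-124, 3 were lower in the library labelled triple against control, and 12 lower and 1 higher in it against the double treatment. In the Grem1-led cluster 1 was lower with the let-7 antagomiR and 1 with miR-25, 1 lower and 1 higher in the library labelled miR-124, 0 lower in the library labelled triple against control, and 5 lower and 1 higher against the double treatment. There Myl9 (0.237), Actb (0.303) and Actg1 (0.0455) turned in the library labelled triple against control, and Cnn1 (0.0175) and Actb (0.269) against the double treatment. The cause of these moves was not tested. Acta1 in the library labelled triple rests on 2 UMIs.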
